A study of Mus musculus with 6 samples.

Results

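The Hedgehog pathway was followed through 9 genes, Shh, Ptch1, Smo, Boc, Hhip, Sufu, Gli1, Gli2 and Gli3, of 19938 named genes measured on 6 whole-transcript arrays. For each gene the row that the platform annotation assigns to that gene alone was taken, and each of the 9 had 1 such row, so the mean level over the arrays, by which a gene's row was to be chosen, decided nothing. Hhip is in the set because earlier results of these same arrays had it among the genes that changed, so it was chosen by the contrast described here and its change is given without a test.

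The cells were E14, a mouse embryonic stem cell line, with 3 control arrays and 3 arrays of Tdg knockdown cells. The Tdg product, thymine DNA glycosylase, is a repair enzyme that excises mismatched thymine and some oxidised forms of methylcytosine, and the series belongs to work on how TET and TDG oxidise and remove that base. All cells were kept on 0.1% gelatin in 15% serum with leukemia inhibitory factor at 1000 units/ml. The treatment protocol, given alike for both groups, was lentiviral infection at a multiplicity of 10 followed by puromycin at 2 ug/ml from 48 h, and no cloning of the cells is described. The insert that the control virus carried is not given in the sources used here, nor is any ligand or drug acting on Hedgehog signalling. Whether arrays within a group stem from separate cultures is not stated, so p-values cover only the spread among these 6 arrays, and that spread may be technical.

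Hedgehog signalling starts when a secreted Hedgehog ligand binds the membrane protein Patched. Unbound Patched keeps the transducer Smoothened inactive. Once released, Smoothened acts through the primary cilium to free the Gli transcription factors from their inhibitor Sufu, and Gli proteins then switch on target genes that include Ptch1, Gli1 and Hhip. Ptch1 and Hhip both bind the ligand, so their induction dampens the pathway. In the embryo the pathway patterns the neural tube, limbs and gut, among other tissues.

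Tdg signal, read from 4 rows that the annotation shares with the pseudogene Tdg-ps2, stood at 12.2% of the control level (log2 difference -3.03 ± 0.09, SE, limma adjusted p 8.79e-05; exact two-sided permutation p 0.1, the smallest that 3 against 3 arrays allows). The extraction protocol speaks of Kdm2b knockdown, and Kdm2b differed by 0.10 (SE 0.08, adjusted p 0.694). The 8 embryonic stem cell markers, among them Pou5f1, Nanog and Sox2, had mean log2 signals of 10.45 to 13.34, and none differed between the groups past the threshold (limma; 0 at an unadjusted p under 0.05). Knockdown replicate 3 stood apart from the other arrays on the first principal component, at 31.0 against -17.5 to 5.2. On that array the rows of 1015 olfactory receptor genes, most of them silent in stem cells, deviated from their mean over the arrays by a median of 0.18, against -0.09 to 0.03 on the others.

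Of the 9 genes Hhip was higher in knockdown cells, at 1.64-fold, and none of the other 8 passed the test. Smo, the signal transducer, had the next largest difference, at 79.2% of the control level. The targets Ptch1 and Gli1, the inhibitor Sufu and the ligand gene Shh stood at 94.4%, 107%, 100.5% and 98.4% of control. Over all named genes limma called 158 at an adjusted p under 0.05, or 0.792% (0.241% higher and 0.552% lower in knockdown cells). Hhip is the 1 call among the 9, and since it was chosen for that call nothing is read from the count. Among the other 8 there were 0 calls, with 2 at an unadjusted p under 0.05, Smo and Gli2, where 12.5% of all named genes had such a p.

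**Figure D1:**
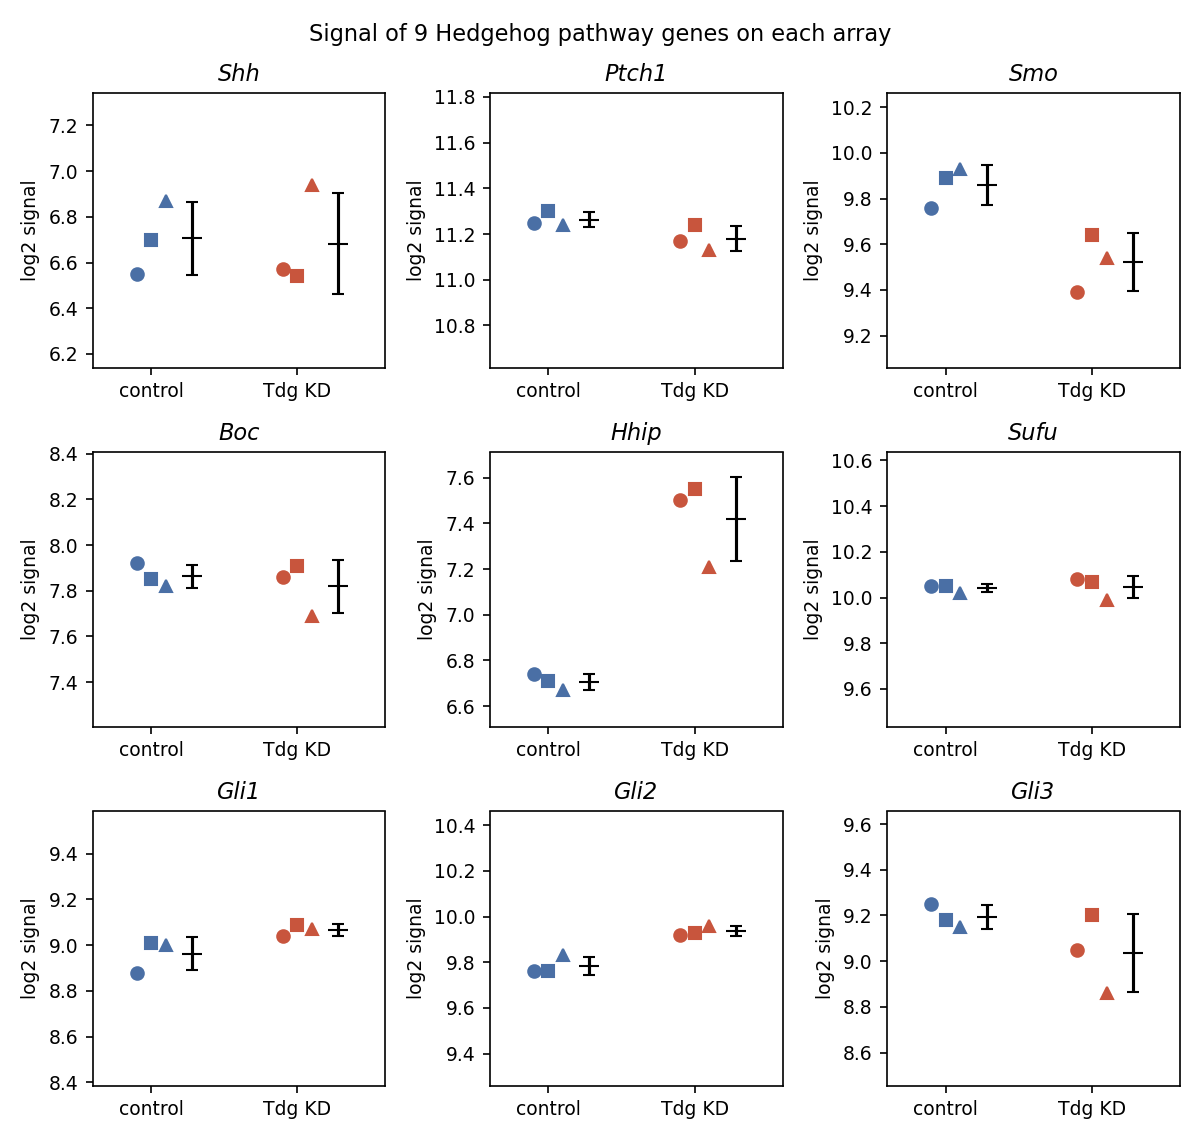
Log2 signal of the 9 genes on each array, with control arrays in blue and Tdg knockdown arrays in red. Circles, squares and triangles are replicates 1, 2 and 3, black marks are mean ± SD (n = 3), and every panel spans the same range of log2 units around its own centre. The Hhip arrays of the groups are clear of each other, those of Smo, Gli1 and Gli2 are separated by less, and those of the other 5 genes overlap or meet.

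Hhip encodes Hedgehog-interacting protein, a membrane-anchored and secreted decoy that binds Hedgehog ligands. Its log2 signal was 6.74, 6.71 and 6.67 in the control arrays and 7.50, 7.55 and 7.21 in the knockdown arrays. All 3 knockdown arrays lay above all 3 controls, and the lowest of them was replicate 3. The means were 6.71 ± 0.04 and 7.42 ± 0.18 (SD, n = 3 each), a difference of 0.71 with a standard error of 0.10 and a 95% interval of 0.48 to 0.94. Among all named genes 10 had a larger increase. Because Hhip was chosen by this contrast, the interval and this rank are descriptions, and neither allows for that choice. By array number the difference was 0.76, 0.84 and 0.54, and without knockdown replicate 3 it was 0.82. The call that brought Hhip into the set was lost under quantile normalization (difference 0.69), with all rows of the table tested, and when any single array other than knockdown replicate 3 was left out (0.65 to 0.73). The control level of Hhip is low on the array. Rows of the olfactory receptor genes had mean log2 signals of 4.71 at the median and 6.21 at the 90th percentile, and probe sets differ in affinity, so how much of the Hhip signal in control cells is background was not tested. A fold taken over such a signal can understate a change in RNA.

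Smo was the member with the largest difference after Hhip. Tdg excises some oxidised forms of methylcytosine, a base found mostly in CG dinucleotides. The letters before a Hhip start site are therefore shown beside those of Smo and of Ptch1, another Gli target that binds the ligand. Each is the 250 bases before the start that the RefSeq promoter table (GRCm38.p6) lists for the gene, 5′ to 3′ on the gene's strand, with every CG in capitals. For Ptch1 and Hhip that start lies inside the full span of the gene, so the Ptch1 stretch lies within the gene and the Hhip stretch overlaps its outer end, while the Smo stretch ends just before the gene.
Hhip (chr8:80058009-80058258, minus strand): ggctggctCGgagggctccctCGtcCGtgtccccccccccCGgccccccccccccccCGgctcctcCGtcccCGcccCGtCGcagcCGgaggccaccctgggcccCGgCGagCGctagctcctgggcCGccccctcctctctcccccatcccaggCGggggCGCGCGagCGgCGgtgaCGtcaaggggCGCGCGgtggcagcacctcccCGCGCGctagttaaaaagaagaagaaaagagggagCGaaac
Ptch1 (chr13:63565736-63565985, minus strand): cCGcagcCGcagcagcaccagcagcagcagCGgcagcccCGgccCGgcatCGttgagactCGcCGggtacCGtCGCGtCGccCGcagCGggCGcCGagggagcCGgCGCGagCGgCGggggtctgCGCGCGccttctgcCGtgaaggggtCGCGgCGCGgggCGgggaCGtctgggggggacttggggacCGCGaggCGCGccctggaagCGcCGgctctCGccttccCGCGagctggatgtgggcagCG
Smo (chr6:29735247-29735496, plus strand): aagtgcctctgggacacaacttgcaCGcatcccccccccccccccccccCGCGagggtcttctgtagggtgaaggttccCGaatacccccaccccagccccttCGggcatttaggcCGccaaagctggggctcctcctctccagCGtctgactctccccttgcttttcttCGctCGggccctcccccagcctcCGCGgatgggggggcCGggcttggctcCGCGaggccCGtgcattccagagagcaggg

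The Hhip stretch holds 28 CG dinucleotides, the Ptch1 stretch 41 and the Smo stretch 15, where the median over 32851 promoters of that length is 6. At least as many as in Hhip were found in 7.61% of promoters, at least as many as in Ptch1 in 1.09%. For Smo that share was 27.3%. A promoter entry was found for 6 of the 9 genes. Of the others, Gli3 had 34, Gli2 had 22 and Sufu had 8. All 6 stretches held more CG than the median promoter. Whether CG content goes with the differences on the arrays was not tested. The Gli consensus GACCACCCA was searched on both strands and was in none of the 6 stretches and in 0.225% of all promoters. Its inner letters CCACCC, which lie within that consensus, were in those of Hhip, Smo, Gli2 and Gli3 and in 28.1% of all promoters. In Hhip they begin 158 bases before the listed start. These counts describe letters only, and methylation or oxidation at these sites was not measured here.

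Shh, the ligand gene best known from the floor plate and notochord, read 6.55, 6.70 and 6.87 in control and 6.57, 6.54 and 6.94 in knockdown arrays. The groups overlapped, and both arrays numbered 3 were the highest of their group. The difference was -0.02 (SE 0.13, adjusted p 0.965), with a 95% interval of -0.33 to 0.28. The olfactory receptor rows were also highest on the arrays numbered 3 within each group, with median deviations of 0.03 and 0.18; the part of that shift in the Shh values was not tested.

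Among the receptors, Ptch1, which is both the ligand's receptor and a target of the pathway, read 11.25, 11.30 and 11.24 in control and 11.17, 11.24 and 11.13 in knockdown arrays. The ranges met at 11.24, and the difference of -0.08 (SE 0.06, adjusted p 0.677) had a 95% interval of -0.23 to 0.06. Boc, a co-receptor that helps cells bind Hedgehog ligand, read 7.92, 7.85 and 7.82 in control and 7.86, 7.91 and 7.69 in knockdown arrays. Its groups overlapped as well, with a difference of -0.04 (SE 0.08, adjusted p 0.87, 95% interval -0.23 to 0.14).

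Smo encodes Smoothened, the membrane protein that passes the signal inward. Its signal was 9.76, 9.89 and 9.93 in control and 9.39, 9.64 and 9.54 in knockdown arrays. Every knockdown array lay below every control array, by 0.12 at the closest, and the difference kept its sign in each pair of equally numbered arrays at -0.37, -0.25 and -0.39. The mean difference was -0.34 with a standard error of 0.09 and a 95% interval of -0.54 to -0.13, and the adjusted p of 0.152 missed the threshold. With the replicate number as a block Smo passed, at an adjusted p of 0.0428, where 614 genes or 3.08% of all passed. The blocked value holds only if equal numbers mark paired samples, which no label states.

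**Figure D2:**
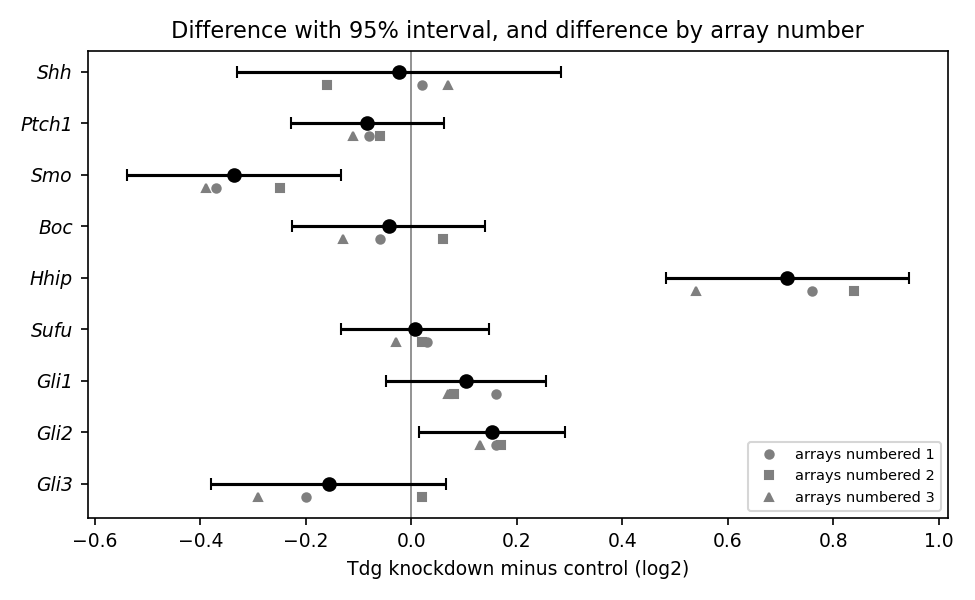
Difference between Tdg knockdown and control (log2) for the 9 genes, as black points with 95% intervals from limma, and the difference between equally numbered arrays as grey symbols below each. The Hhip interval runs from 0.48 to 0.94 and does not allow for the choice of Hhip by this contrast. Those of Smo (-0.54 to -0.13) and Gli2 (0.02 to 0.29) do not reach 0, and the other 6 include 0.

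Of the intracellular members, Sufu, which holds Gli proteins in the cytoplasm, had the most even signal, with 10.05, 10.05 and 10.02 in control and 10.08, 10.07 and 9.99 in knockdown arrays. The groups overlapped. The difference was 0.01 (SE 0.06, adjusted p 0.979, 95% interval -0.13 to 0.15).

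Gli1 is the Gli factor that acts as an activator and is itself a target, which makes it a common readout of pathway activity. It read 8.88, 9.01 and 9.0 in control and 9.04, 9.09 and 9.07 in knockdown arrays. The groups did not overlap, but the gap was 0.03, and the difference of 0.10 (SE 0.06, adjusted p 0.606) had a 95% interval of -0.05 to 0.25. Gli2, the main activator of the family, read 9.76, 9.76 and 9.83 in control and 9.92, 9.93 and 9.96 in knockdown arrays. Here too all knockdown arrays were above all controls. Its difference of 0.15 (SE 0.06) had an adjusted p of 0.346, or 0.168 with the block, and a 95% interval of 0.02 to 0.29. Gli3, which works mostly as a repressor when no ligand is present, read 9.25, 9.18 and 9.15 in control and 9.05, 9.20 and 8.86 in knockdown arrays. Knockdown replicate 2 lay within the control range, and replicate 3 was the lowest. The difference was -0.16 (SE 0.09, adjusted p 0.591, 95% interval -0.38 to 0.07), and -0.07 without knockdown replicate 3.

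In all, groups did not overlap for Hhip and for 3 of the other 8 genes, against 19.0% of all named genes. The median difference of the 8 was -0.03, beside 0.02 over all named genes. The intervals of Ptch1 and Gli1 ended at 0.06 and 0.25. The difference between Hhip and these targets was not tested, since Hhip was chosen for its value.

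The rest of the pathway was read from 5 lists ordered by role, with 89 measured genes in all, 80 of them outside the 9. Of those 80, limma called 3 at an adjusted p under 0.05, against 0.792% of all named genes: Gpc4 and Bcl2 fell and Ccnd2 rose. The lists were drawn up with earlier results of these data known, so nothing is read from this count. The median difference of the 80 was -0.04.

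Gpc4 encodes glypican 4, a heparan sulfate proteoglycan of the cell surface, a family that binds several secreted ligands, Hedgehog among them. It read 10.14, 10.15 and 10.08 in control and 9.52, 9.63 and 9.42 in knockdown arrays, with no overlap. It stood at 66.0% of control, a difference of -0.60 (SE 0.07, limma adjusted p 0.0276). Of the 13 measured genes of reception, 1 fell, 1 was higher (Hhip, by choice) and 11 did not pass, with a median of -0.08. Gpc6, another glypican, differed by -0.22 (SE 0.09, adjusted p 0.361).

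Of 22 measured targets 1 fell, 2 were higher (Hhip by choice, and Ccnd2) and 19 did not pass. The median was 0.08, and 0.00 without knockdown replicate 3. The rows of the olfactory receptor genes also had a median difference of 0.08. The part of such a shift in the target median was not tested. Ccnd2, a D-type cyclin that drives entry into the cell cycle, read 9.20, 9.30 and 9.31 in control and 9.70, 9.76 and 9.66 in knockdown arrays. The groups were well apart, and the difference was 0.44 (SE 0.06, adjusted p 0.04). Bcl2, an inhibitor of apoptosis, read 8.26, 8.14 and 8.26 in control and 7.75, 7.75 and 7.78 in knockdown arrays, a difference of -0.46 (SE 0.06, adjusted p 0.0331). Both are targets of other pathways too, and the part of Hedgehog signalling in their differences was not tested. The calls of Gpc4, Ccnd2 and Bcl2 were lost when any single array other than knockdown replicate 3 was left out. Their differences in those fits were -0.59 to -0.65, 0.40 to 0.46 and -0.44 to -0.50. The loss was general, since the same fits called 0 to 15 of all named genes, against 158 with all arrays. The 3 calls were also lost with all rows of the table tested (limma adjusted p 0.0981 to 0.117). That of Ccnd2 was lost too with each array centred on its median (0.0691).

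**Figure D3:**
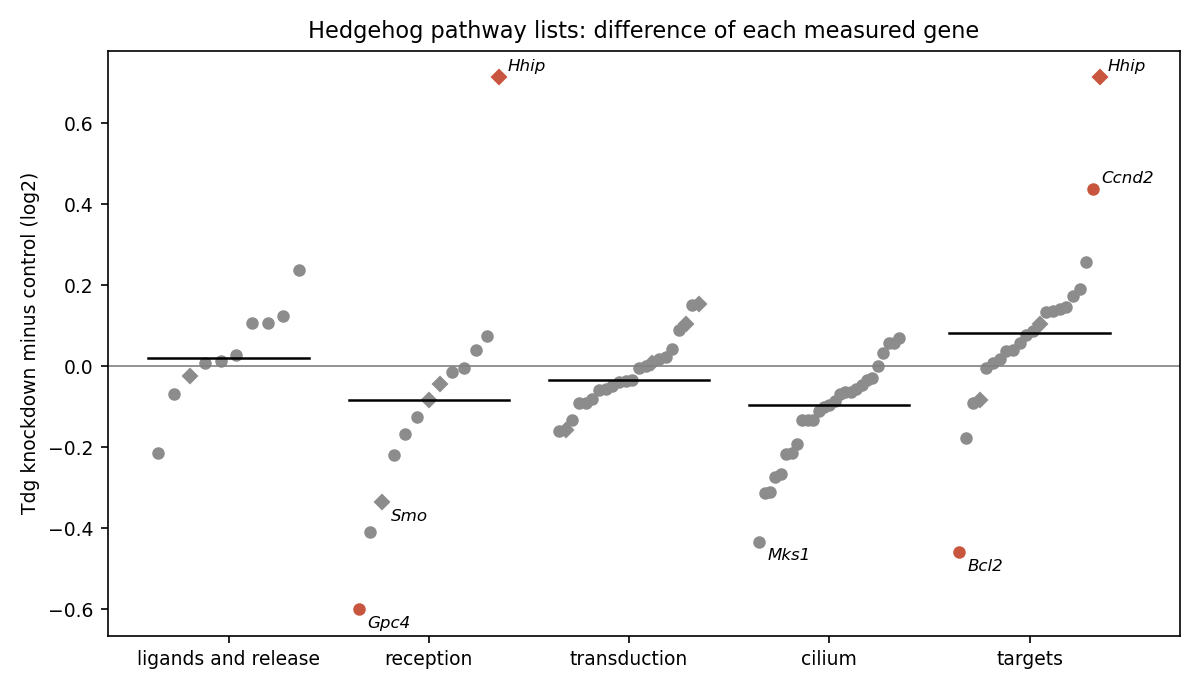
Tdg knockdown minus control (log2) of each measured gene in 5 role lists, ordered by value within a list, with the list median as a black line. Diamonds are the 9 genes described above, which recur where they belong to more than 1 list, and red marks an adjusted p under 0.05. Gpc4 at -0.60, Bcl2 at -0.46, Ccnd2 at 0.44 and Hhip at 0.71 are the red points.

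None of the 10 ligand and release genes passed (limma, 0 at an unadjusted p under 0.05), and their median was 0.02. The smallest p were those of Hhat, the acyltransferase that attaches palmitate to Hedgehog ligands (-0.21, SE 0.11, adjusted p 0.506), and of the ligand gene Dhh (0.12, SE 0.07, adjusted p 0.548). Of 22 transduction genes 0 passed, with 3 at an unadjusted p under 0.05 and a median of -0.04. Outside the 9, the smallest p were those of the ubiquitin ligase subunits Fbxw11 (-0.16, SE 0.06, adjusted p 0.329) and Spop (0.15, SE 0.06, adjusted p 0.374), which take part in the processing and turnover of Gli proteins.

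Of 27 genes of the primary cilium 0 passed, with 4 at an unadjusted p under 0.05, and 22 lay below 0 with a median of -0.10. Over all named genes 43.5% lay below 0. The mean log2 signal of the list was 8.71, 8.66 and 8.61 in control and 8.59, 8.65 and 8.40 in knockdown arrays, so knockdown replicate 2 lay within the control range and replicate 3 was the lowest. Without replicate 3 the median was -0.05. Mks1, a protein of the transition zone at the base of the cilium, read 9.33, 9.24 and 9.26 in control and 8.79, 8.95 and 8.79 in knockdown arrays, with no overlap. Its difference was -0.43 (SE 0.07), at an adjusted p of 0.052, or 0.0368 with the replicate block. Tctn1, of the same zone, differed by -0.27 (SE 0.07, adjusted p 0.135).

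Markers of cell types in which the pathway is often active were read beside these values. Of 3 measured floor plate and notochord markers, Foxa2, Shh and Noto, none passed (limma, 0 at an unadjusted p under 0.05), and their summed log2 signal was 20.30 to 20.79 in control and 20.54 to 21.29 in knockdown arrays. Of 3 neural progenitor markers, Pax6 rose by 0.93 (adjusted p 0.0145), while Nes differed by -0.60 (0.0845, or 0.0246 with the block) and Sox1 by 0.06 (0.838). Their summed signal was 25.77 to 26.08 in control and 26.03 to 26.57 in knockdown arrays. Of 6 fibroblast, 6 primitive endoderm and 3 mesoderm markers none passed, with 1 of each at an unadjusted p under 0.05: Pdgfrb (-0.26), Dab2 (-0.30) and Hand1 (0.32). Their summed ranges were 45.07 to 46.41, 43.43 to 44.17 and 19.94 to 20.86 in control, and 45.06 to 46.97, 43.31 to 44.56 and 20.79 to 21.56 in knockdown arrays. The part of other cell types in the Hhip values was not tested. In such bulk RNA a change in the share of cells that hold a transcript and a change in its amount per cell cannot be told apart.

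The genes most like Hhip across the arrays were found by Pearson correlation over the 6 arrays, leaving out predicted models. They were Enox1, D16Ertd472e, Epc1, Ccne1 and Tpgs2, with r of 0.994 to 0.998. Enox1, a cell surface oxidase gene, was at 8.75, 8.69 and 8.68 in control and 9.33, 9.32 and 9.11 in knockdown arrays, a difference of 0.55. Like Hhip it was lowest in replicate 3 within each group. The differences of the others were 0.39, 0.31, 0.14 and 0.06, given without a test since likeness to Hhip chose these genes. A high r thus went with changes of very different size. The 6 arrays fall into the 2 groups, which every such r shares, and r is a description only.

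None of the named genes on either side of Hhip in the RefSeq gene order passed the test. Anapc10, a subunit of the anaphase-promoting complex, differed by -0.10 (SE 0.08, adjusted p 0.726) and Abce1, a ribosome recycling factor, by 0.00 (SE 0.07, adjusted p 0.99). On the other side the long noncoding RNA 4930505O20Rik differed by 0.06 (SE 0.14, adjusted p 0.905) and Frem3 by 0.02 (SE 0.10, adjusted p 0.961). Their 95% intervals ended at 0.10, 0.17, 0.38 and 0.26, and no difference from Hhip was tested. The control means of 4930505O20Rik and Frem3 were 5.96 and 5.33, under the 90th percentile of the olfactory receptor rows (6.21). Whether these rows hold signal over background was not tested.

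**Figure D4:**
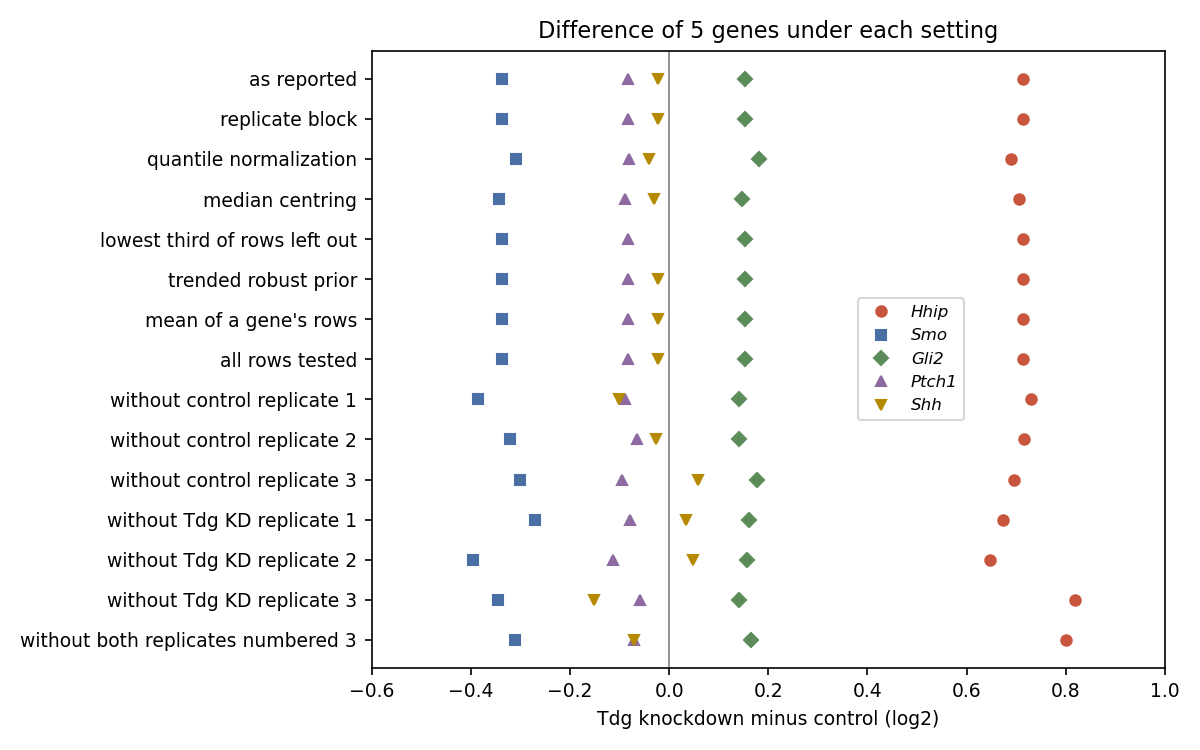
Tdg knockdown minus control (log2) of Hhip, Smo, Gli2, Ptch1 and Shh under each processing setting and with arrays left out. Hhip lies between 0.65 and 0.82, Smo between -0.40 and -0.27, Gli2 between 0.14 and 0.18, and Shh lies on both sides of 0. Shh has no point where dim rows are left out, since its row is among them.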

How the data were processed

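Total RNA of 6 E14 samples, 3 control and 3 Tdg knockdown by their titles, was labelled with biotin and measured on Affymetrix arrays, per the labels' protocols. The authors deposited a log2 signal for each probe set on each array, from 2.26 to 14.03 with array medians of 7.41 to 7.48. Per the submitters' processing notes, Affymetrix Expression Console made them. The sources used here give no version, summarisation or normalization, and that the scale is log2 was judged by the span of values. No detection calls were used.

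Of 35557 rows, 21789 list a single gene, 1621 several and 12147 none. Names were updated by gene identifier through RefSeq (GRCm38.p6) for 21698 rows, and the row with the highest mean per gene left 19938 genes. Groups were compared by lmFit and eBayes of limma 3.58.1 under R 4.3.3 (two-sided, Benjamini-Hochberg over all genes, threshold 0.05), without a block. The same code was tested on simulated data with known changes. It recovered 4.8% of changes of 0.3 log2 units, 40.8% of those of 0.5 and 85.6% of those of 1. Of its calls 4.96% were false. A gene that did not pass may thus still have changed by a small amount. The simulated noise was independent between genes and arrays, without shifts that many genes of an array share. The simulated shares may therefore not hold for the deposited arrays.

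The deviations of equally numbered arrays from their group means correlated at 0.61, 0.23 and 0.70 across genes. Arrays of unequal number ran from -0.64 to 0.44. For every control array the equally numbered knockdown array had the highest r. Knockdown replicate 2, however, had a higher r with control replicate 1 (0.44) than with control replicate 2 (0.23). Deviations from a group mean depend on each other, so these r are not separate values. No label states pairing. The reported fit leaves the numbers out, and blocked values are given beside it where the call of a gene named with a test changes.

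The 9 genes, the role lists and the markers were chosen with earlier results of these data known. Named were the 9, each list's other called genes, the 2 other genes with the smallest p in each list, Tdg, Kdm2b, the 5 genes most like Hhip and 2 neighbours on each side. Some listed genes and markers were not analysed here and are not reported. The alternatives tried were a replicate block, quantile normalization, median centring, a filter on dim rows, a trended robust prior, the mean of a gene's rows, all rows, and leaving out each array.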

Additional observations from a re-analysis of the deposited data

How the results depend on the processing

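Hhip was higher in knockdown cells under all 14 alternatives (0.65 to 0.82), though it was past the threshold in 7 of them. Since Hhip was chosen by this contrast on these same arrays, nothing is read from its constant sign or from that count. Quantile normalization, testing all rows, and leaving out any array except knockdown replicate 3 ended its call. The number of genes called over all named genes, 158 as reported, was 614 with the replicate block, 444 without the dimmest rows (the third lowest in mean), 446 with a trended robust prior and 12 with all rows tested. Leaving out 1 array gave 0 to 290 calls. The 0 came on dropping control replicate 1, control replicate 2 or knockdown replicate 1 (limma; 1682, 1510 and 1959 at an unadjusted p under 0.05), and 15, 4 and 290 came without control replicate 3, knockdown replicate 2 and knockdown replicate 3. Of the 8 members other than Hhip, 1 passed with the block, Smo, and 0 in the other alternatives (1 or 2 at an unadjusted p under 0.05). Of the 80 other pathway genes 3 passed as reported, 0 with all rows tested (10 at an unadjusted p under 0.05) and 0 to 3 without 1 array (6 to 17 where 0 passed). Without both arrays numbered 3, an alternative chosen after seeing the data, 1 passed, Gpc4. Median centring also ended the call of Ccnd2 (adjusted p 0.0691; 0.012 to 0.234 over its alternatives). Mks1 passed with the block, quantile normalization, the filter on low rows and the trended prior (adjusted p 0.0189 to 0.253 over all). Signs of small differences turned when 1 array was left out: Sufu ran from -0.01 to 0.035, Shh from -0.15 to 0.058 and Boc from -0.088 to 0.022 in those fits. Among genes named with a test, the block changed the calls of Smo, Mks1 and Nes and of no other. The causes were not tested, beyond the fewer arrays or the other number of tests in some alternatives. Control levels of Hhip and Shh are low, and signal over background was not analysed.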
